A study of Mus musculus with 6 samples.

Results

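The clustered protocadherins are cell adhesion proteins of the neuronal surface, encoded by 3 gene clusters that lie side by side on mouse chromosome 18. They were taken here as the protein-coding genes of GENCODE release M21 on that chromosome whose symbol begins with Pcdha, Pcdhb or Pcdhg. The rule gave 57 genes of the 55335 identifiers counted, 14 in the alpha cluster, 22 in the beta cluster and 21 in the gamma cluster, and all 57 had a count in the files. GENCODE gives the symbol Pcdha11 to 2 of them. The one between Pcdha9 and the other Pcdha11 (ENSMUSG00000007440) is called Pcdha10 below, the symbol that RefSeq has at that place on the same assembly.

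Gene expression was measured by RNA-seq in the striatum of C57 mice, a forebrain region made up mostly of medium spiny neurons. The study compared transcripts with and without overexpression of PDE5A, a phosphodiesterase that breaks down cyclic GMP. The 3 control samples carry the genotype label WT and the 3 overexpression samples the label PDE5A Overexpressing. The sources used here give neither the means of overexpression nor the treatment of the controls nor the age of the mice. Whether each sample is an animal of its own is not stated, and the p-values rest on the variation among these 6 libraries, which could be technical.

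As background, each alpha and gamma gene has its own promoter and 1 large coding exon, for the extracellular part and the membrane span, which is spliced to short constant exons shared by the whole cluster. Beta genes have no constant exons. A single neuron uses only a few of the alternate promoters, chosen at random with the help of CTCF, cohesin and DNA methylation, whereas the C-type genes at the end of the alpha and gamma clusters follow other rules and are active in many neurons. The proteins bind copies of themselves on other membranes, and the resulting combination lets the branches of a neuron recognise and avoid each other.

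Library totals ran from 33013698 to 42288789 counts, and all 3 overexpression libraries were shallower than all 3 controls. The 57 genes took between 0.0944% and 0.102% of each library. Pde5a, which checks the labels, rose from 4.65 ± 1.26 to 684 ± 85.5 CPM (counts scaled to the TMM-adjusted library size, SD, n = 3), with an adjusted p of 0.000151 in edgeR's quasi-likelihood test. The 15 medium spiny neuron markers, which define the striatum, were all present, with summed levels of 6004 to 10507 CPM in control and 4992 to 10231 in overexpression. Libraries differed in several marker lists. The 16 cortical glutamatergic markers had a mean level of 4.96, 3.32 and 5.58 log2 CPM in control replicates 1 to 3 against a level of 4.34, 5.05 and 5.98 in overexpression replicates 1 to 3. The summed level of the 14 choroid plexus markers tested of 15 listed, none at 0 in any library, was 56.4 to 77.6 CPM in the controls. With overexpression it was 36.5 to 2535 CPM. Replicates 1 and 2 of the latter were the high ones, with Ttr at 481 and 2243 CPM against 22.5 to 48.5 in the other 4 libraries. Of the 12 thalamic markers, Lhx9 was at 0 in overexpression replicate 1. Their summed level was 188 to 242 CPM in the controls and 172 to 176 with overexpression. Fold changes were negative for 11, beside 49.4% of all genes tested, and Calb2 was the exception at 0.64. Prkcd, Gbx2 and Tcf7l2 were lower with groups apart, 25% of the list beside 4.11% of all genes. No thalamic marker passed an adjusted p of 0.05 in edgeR's quasi-likelihood test, beside 0.00505% of all genes tested. DESeq2 called 1, beside 0.419% of all genes.

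In the comparison of overexpression with control, 0 of the 57 clustered protocadherin genes passed an adjusted p of 0.05 in edgeR's quasi-likelihood test, where 0.00505% of the 19809 genes tested did. That share is Pde5a alone. All 57 passed the filter on low counts. DESeq2's Wald test and limma-voom likewise called 0 of the 57, with a DESeq2 background of 0.419%. At an unadjusted p under 0.05 there were 5 members (Pcdha6, Pcdha9, Pcdhb8, Pcdhga4 and Pcdhgc3), 8.77% of the 57, beside 3.89% of all genes tested. Log2 fold changes were positive for 27 members and negative for 30, with a median of −0.02, beside 0.00 over all genes tested. Leaving out overexpression replicates 1 and 2, the libraries high in choroid plexus markers, keeps a single overexpression library. Such a fit cannot decide whether a member differs.

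**Figure D1:**
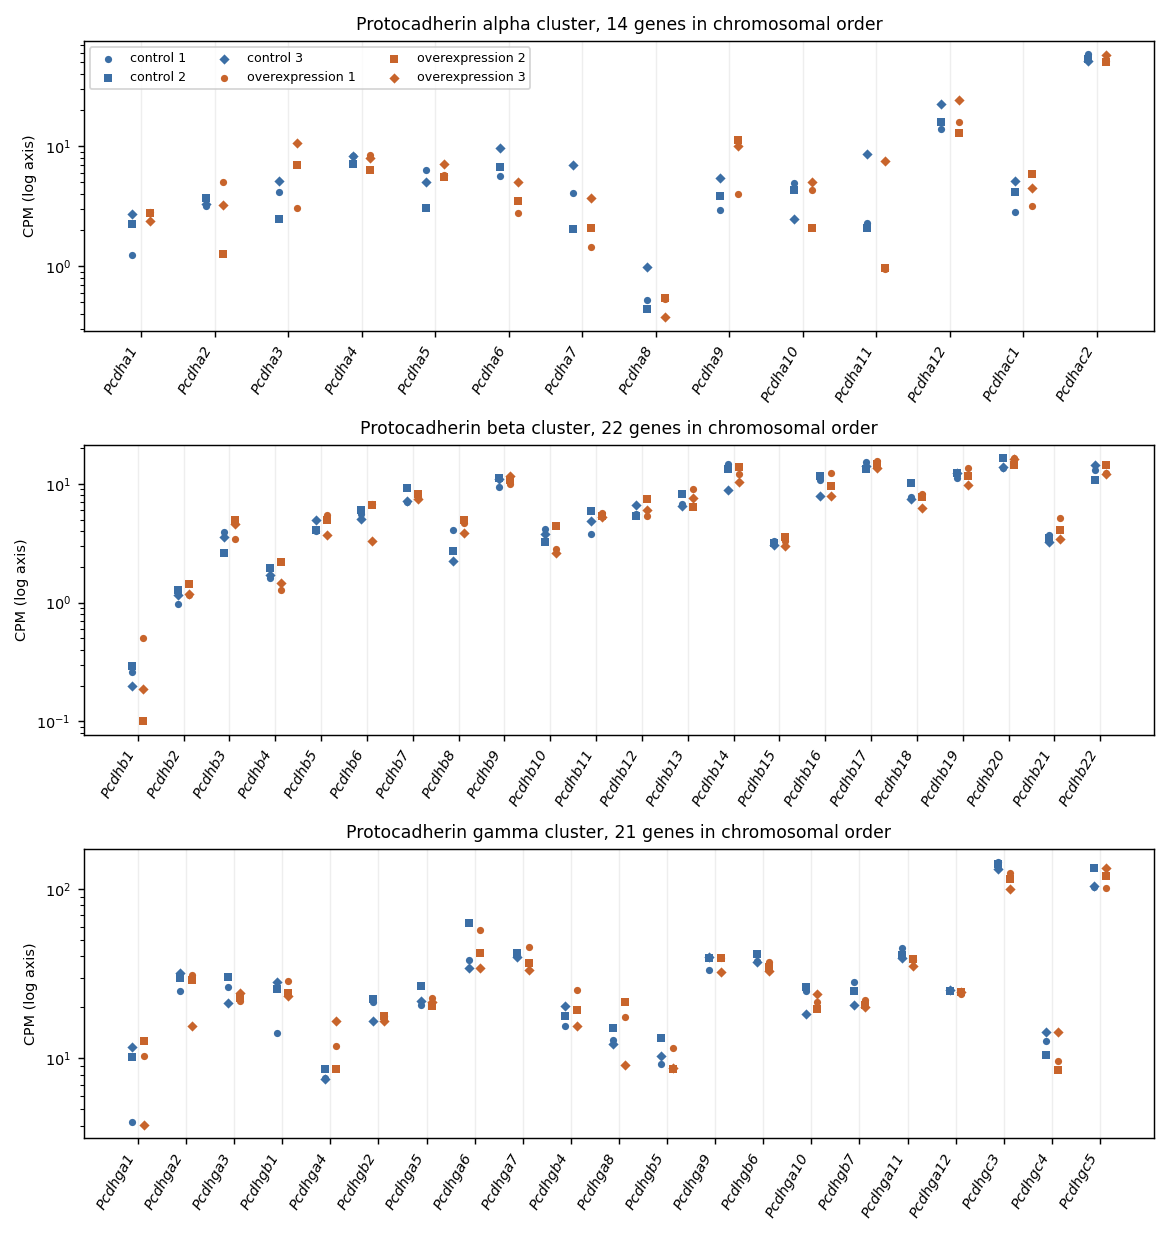
CPM of each of the 57 genes (log axis) in the 6 libraries, 1 panel per cluster and genes in chromosomal order. Colours mark the groups and symbols the replicate numbers. The blue control and orange overexpression points overlap for 53 genes, and most alternate alpha genes scatter widely. The overexpression library with 0 counts of Pcdhb1 is drawn at 0.1.

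The summed level of each cluster was close in the 2 groups. The alpha cluster had 119, 111 and 137 CPM in controls 1 to 3 against 109, 112 and 149 with overexpression, means of 122 ± 13.2 and 123 ± 22.3 (SD, n = 3). The beta cluster had 151, 157 and 144 CPM in the controls against 164, 162 and 142 with overexpression, means of 151 ± 6.64 and 156 ± 12.2. The gamma cluster had 691, 788 and 685 CPM in the controls against 720, 682 and 640 with overexpression, means of 721 ± 57.7 and 681 ± 39.9. The groups overlapped in all 3 clusters. The gamma cluster held between 68.8% and 74.6% of the counts of all members in every library, the beta cluster 14.9% to 16.9% and the alpha cluster 10.5% to 16.01%. In bulk tissue, fewer cells of a type and less RNA per cell cannot be told apart.

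Exon sharing bears on how these counts can be read. In the GENCODE models 2860 bases belong to exons of all 14 alpha genes and 2116 bases to exons of all 21 gamma genes. Shared bases made up 38.9% to 91.4% of an alpha gene's exons and 31.5% to 66.8% of a gamma gene's, but at most 9.67% of a beta gene's, where Pcdhb21 and Pcdhb22 overlap. The counts themselves show that reads in the constant exons were not credited to every gene that holds them. Pcdha8 had at most 40 counts in any library while Pcdhac2, with the same constant exons, had at least 1674. The read-through models Gm42416, Gm37388 and Gm37013, which share exons with many members, had 0 counts in all 6 libraries. Which gene, if any, received a read from the constant exons is not given in the sources used here. The alpha cluster spans 36930184 to 37187661, the beta cluster 37264938 to 37524479 and the gamma cluster 37661793 to 37841873 on chromosome 18 of mm10, all members being on the plus strand.

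Because genes differ in length, levels are ranked here per kb, taken over the exon bases that no other gene on the same strand shares. The 2 highest members were Pcdhgc3 and Pcdhgc5, with 37.3 and 25.1 CPM per kb over the 6 libraries. Pcdhac2 followed with 17.7 and Pcdhga6 with 17.1. The other C-type genes were far lower, Pcdhgc4 at 3.36 and Pcdhac1 at 1.66 CPM per kb. Among the alternate alpha genes, Pcdha12 had 7.08 and Pcdha8 the lowest value, 0.229. Pcdhb20 was the highest beta gene at 4.28 CPM per kb, and Pcdhb1 the lowest member of all at 0.0932. Pcdha4 had 15.6 CPM per kb on this scale, but only 494 of its exon bases are unshared because Gm42416 covers most of its large exon, and per kb of that coding exon its level was 3.23.

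**Figure D2:**
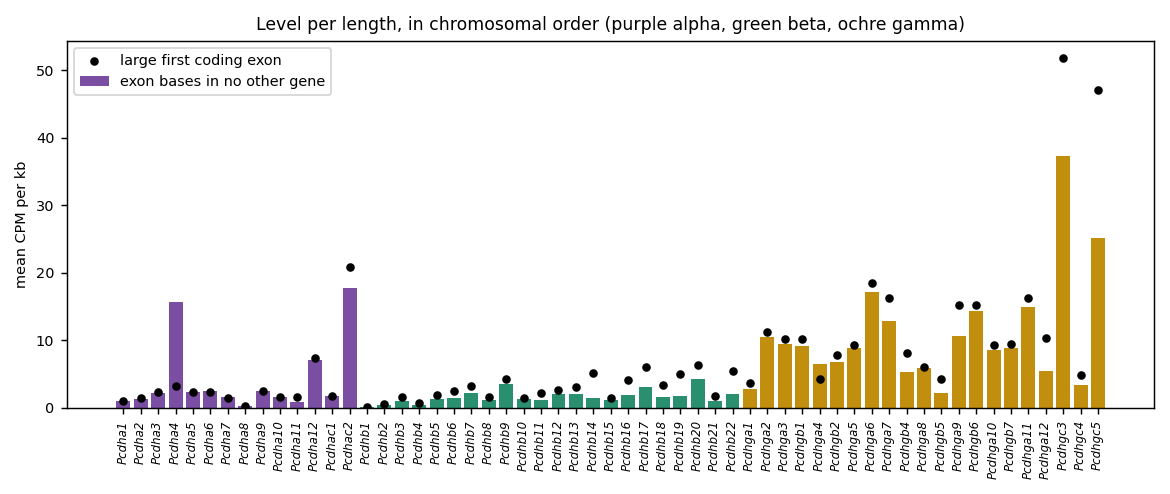
Mean CPM over the 6 libraries per kb for the 57 genes in chromosomal order. Bars use the exon bases held by no other gene on the strand and dots the gene's large first coding exon. Pcdhgc3, Pcdhgc5 and Pcdhac2 stand highest on the dots, and Pcdha4 is the gene whose bar and dot differ most in ratio.

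Within the beta cluster, CPM tended to be higher farther from the alpha cluster. From Pcdhb1, nearest the alpha cluster, to Pcdhb22, the Spearman correlation between order and CPM per kb of coding exon was 0.69 over 22 genes. For CPM not scaled for length it was 0.69 as well. Levels per kb of unshared exon bases, the scale of the ranking above, were not set against order. On that scale Pcdhb20 had 4.28 CPM per kb and its neighbour Pcdhb21 had 0.909. Per kb of coding exon, the correlation was 0.31 over the 12 alternate alpha genes and 0.30 over the 18 A- and B-type gamma genes. These are descriptions across genes that share libraries and neighbouring promoters, and no test was made of them.

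The C-type genes held 32.8% to 38.7% of gamma counts. Pcdhac2, known for the spacing of serotonergic axons, had 58.5, 53.5 and 51.2 CPM in controls 1 to 3 against 50.7, 50.4 and 57.3 with overexpression. The groups overlapped, and the log2 fold change was −0.04 (SE 0.08). Pcdhac2 made up 37.3% to 49.3% of alpha counts, its lowest shares being in control replicate 3 and overexpression replicate 3. Pcdhac1 had 2.84, 4.12 and 5.10 CPM in the controls against 3.17, 5.84 and 4.43 with overexpression, and the groups overlapped (log2 fold change 0.15, SE 0.29).

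Pcdhgc3, a regulator of dendrite branching, was the C-type gene whose groups did not overlap. It had 145, 141 and 131 CPM in controls 1 to 3 against 125, 114 and 99.99 with overexpression, so that every overexpression library lay below every control. The log2 fold change was −0.30 (SE 0.09), with an unadjusted p of 0.0124 and an adjusted p of 1.0 in edgeR's quasi-likelihood test. It was −0.48 without overexpression replicates 1 and 2, and an antisense gene, BC037039, overlaps 1559 of its exon bases at 0.594 to 1.07 CPM. Gamma protocadherins are also made by astrocytes. Of 12 astrocyte markers tested, 11 had negative fold changes, beside 49.4% of all genes. Of these, 6 had groups apart, 50% of the list beside 4.11% of all genes in the lower direction, and Gfap was the exception at 134 to 208 CPM in the controls and 242 to 300.5 with overexpression. None was at 0, and their summed level was 5748 to 6054 CPM in control and 4853 to 5648 in overexpression. Their mean level overlapped, at 7.61, 7.48 and 7.57 log2 CPM in controls 1 to 3 against 7.55, 7.44 and 7.34 with overexpression. Thalamic markers had a summed level of 188 to 242 CPM in the controls and 172 to 176 with overexpression, sums that also did not overlap. The part of either list in the Pcdhgc3 difference was not tested.

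Pcdhgc5, which binds GABA-A receptors, had 103, 134 and 104 CPM in the controls against 101, 119 and 134 with overexpression (log2 fold change 0.05, SE 0.14). Control replicate 2 and overexpression replicate 3 were the high libraries. Pcdhgc4, needed for the survival of interneurons, had 12.7, 10.4 and 14.4 CPM in the controls against 9.70, 8.60 and 14.3 with overexpression (log2 fold change −0.20, SE 0.21). The third replicate of either group was its highest, and the groups overlapped.

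The alternate alpha genes, the 12 of the alpha cluster that are not C-type, had the widest spread between libraries of a group, a description with no test. The SD of log2 CPM within groups had a median of 0.52 over these 12 genes, beside 0.22 over the 22 beta genes, 0.21 over the 12 A-type and 0.21 over the 6 B-type gamma genes, and 0.15 over the 16043 genes tested with a mean of at least 1 CPM. The highest library exceeded the lowest by a median of 3.06-fold for alternate alpha genes and 1.48-fold for beta genes, at median CPM, not scaled for length, of 4.604 and 5.83. Of the 11 alternate alpha genes with at least 1 CPM, 6 lay above the 90th percentile of all such genes in spread, as did 1 of 21 beta genes. The variance between libraries of a group was a median of 19.8 times that of counting for the alternate alpha genes, 5.23 for the beta genes, 20.8 for the gamma genes and 21.8 for the C-type genes. On that scale the alternate alpha genes did not stand above the gamma genes, whose counts are higher. Pcdha4 was the steadiest alternate alpha gene, with an SD of 0.18.

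**Figure D3:**
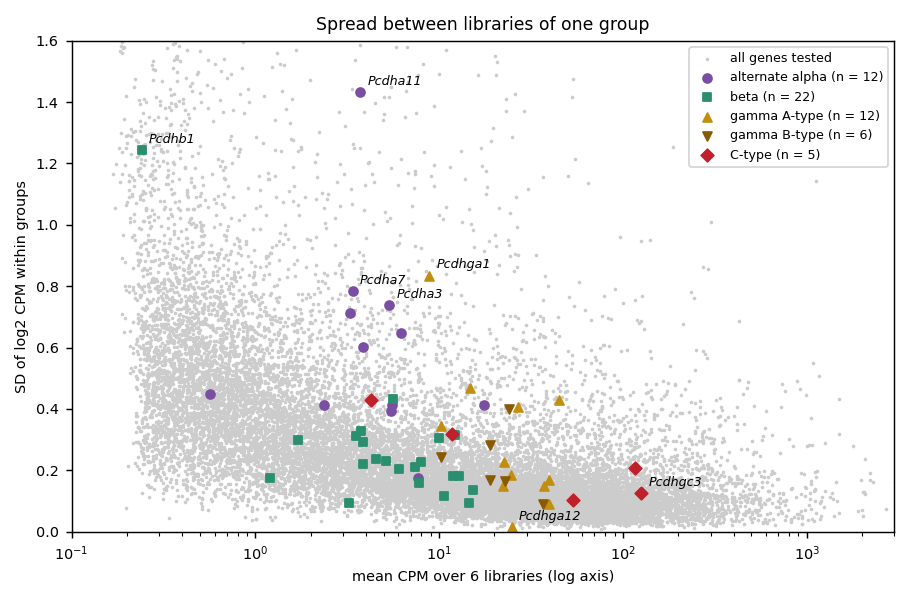
SD of log2 CPM within groups against mean CPM (log axis) for all genes tested (grey) and the 57 members by subclass. Low genes scatter more in general. Pcdha11, at an SD of 1.43, Pcdhga1 at 0.83 and Pcdha7 at 0.78 stand above most genes of their level, and Pcdhga12 at 0.01 lies at the bottom. Genes with an SD above 1.6 are outside the plot.

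Pcdha11 had the widest range of the alternate alpha genes, with 2.29, 2.10 and 8.64 CPM in controls 1 to 3 against 0.937, 0.963 and 7.47 with overexpression. It was chosen for description after its values were seen. The third replicate of either group was high and the other 4 libraries low, so that the spread lay within groups and the log2 fold change was −0.47 (SE 1.05). Antisense genes, Gm10544 and Gm10545, overlap 3338 of its exon bases and had at most 1.21 CPM in any library. Their part in its spread was not tested.

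Pcdha12, the alternate alpha gene with the most counts, was also highest in the third replicates, with 13.9, 15.9 and 22.3 CPM in the controls against 15.8, 12.9 and 24.3 with overexpression. The summed alternate alpha level was 57.4, 53.7 and 80.7 CPM in the controls against 54.9, 56.1 and 87.2 with overexpression, and without Pcdha12 it was 43.5, 37.8 and 58.4 CPM and 39.1, 43.2 and 62.9. Control replicate 3 and overexpression replicate 3 were again the high libraries in both sums. The same libraries had the highest level of cortical markers and the lowest of medium spiny neuron markers, whose mean was 8.48, 8.92 and 8.10 log2 CPM in the controls against 8.88, 8.53 and 7.85 with overexpression. All 16 cortical markers were above 0 in every library, with summed levels of 520 to 1734 CPM in control and 828 to 2216 in overexpression. Their part in the alternate alpha levels was not tested.

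**Figure D4:**
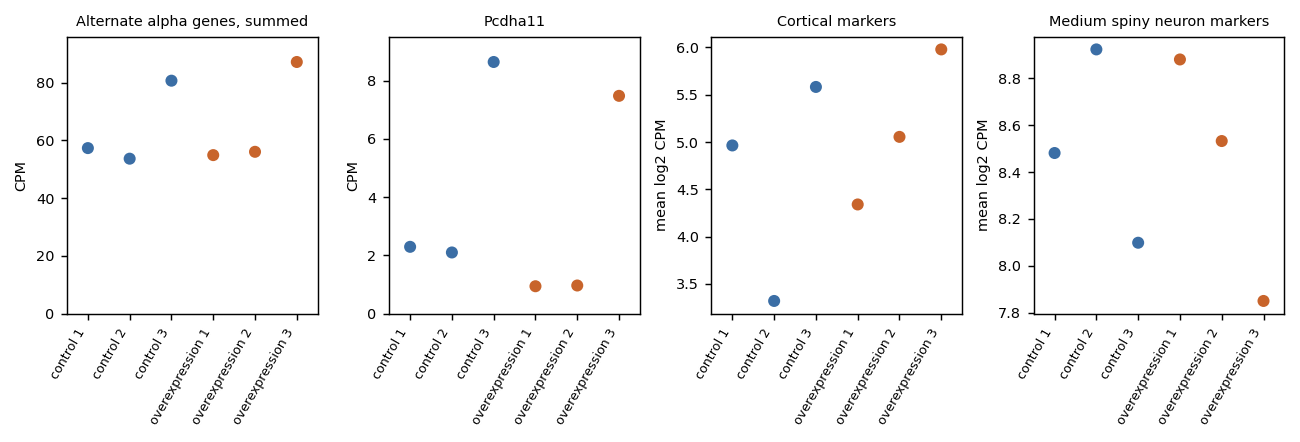
Summed CPM of the 12 alternate alpha genes, CPM of Pcdha11, and the mean log2 CPM of cortical and of medium spiny neuron markers in each library, control in blue and overexpression in orange. Control 3 and overexpression 3 are highest in the first 3 panels and lowest in the last. The axes of the marker panels do not start at 0.

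Over the alpha cluster 6 fold changes were positive and 8 negative, with a median of −0.03, which was 0.14 without overexpression replicate 2. Pcdha6 had 5.63, 6.63 and 9.60 CPM in the controls against 2.76, 3.52 and 5.04 with overexpression. It was the alpha gene whose groups did not overlap, lower in all 3 overexpression libraries, with a log2 fold change of −0.95 (SE 0.28), an unadjusted p of 0.0101 and an adjusted p of 1.0 in edgeR's quasi-likelihood test. The change was −0.53 without overexpression replicates 1 and 2. Its neighbour Pcdha7 had 4.08, 2.02 and 6.98 CPM in the controls against 1.44, 2.08 and 3.71 with overexpression, and the groups overlapped (log2 fold change −0.85, SE 0.52). Without control replicate 3 the change of Pcdha7 was −0.34.

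Pcdha9 and Pcdha3 were high in other libraries. Pcdha9 had 2.96, 3.85 and 5.44 CPM in the controls against 4.003, 11.1 and 10.1 with overexpression, with the large values in overexpression replicates 2 and 3. Its log2 fold change was 1.04 (SE 0.42), the highest of any member, with an unadjusted p of 0.0435 and an adjusted p of 1.0 in edgeR's quasi-likelihood test. Pcdha3 had 4.10, 2.46 and 5.07 CPM in the controls against 3.04, 6.92 and 10.5 with overexpression. Its log2 fold change was 0.81 (SE 0.48), and it was 0.35 without overexpression replicate 3. For both genes overexpression replicate 1 lay within the control range. The 2 alpha genes of lowest CPM also overlapped, Pcdha8 with 0.374 to 0.990 CPM and Pcdha1 with 1.24 to 2.84 CPM over the 6 libraries. Pcdha4 had 6.38 to 8.44 CPM.

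The beta genes have their whole coding sequence in 1 exon. Of the 22, 15 had positive and 7 negative fold changes, with a median of 0.04. None had separate groups, beside 8.93% of all genes tested with groups apart in either direction, 4.81% in the higher one. Pcdhb17 had 15.2, 13.5 and 14.2 CPM in the controls against 15.7, 14.7 and 13.7 with overexpression. Pcdhb20 had 13.6, 16.6 and 13.8 CPM in the controls against 16.5, 14.6 and 16.3 with overexpression, and Pcdhb22 ran from 10.7 to 14.4 CPM. The widest of these 3, Pcdhb22, thus varied 1.34-fold over all libraries.

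Pcdhb8 was the beta gene with the smallest p. It had 4.06, 2.71 and 2.25 CPM in the controls against 4.66, 4.99 and 3.90 with overexpression, where control replicate 1 overlapped the overexpression group. The log2 fold change was 0.59 (SE 0.24), with an unadjusted p of 0.0437 and an adjusted p of 1.0 in edgeR's quasi-likelihood test. Pcdhb3 followed at 0.36 (SE 0.22), and on the lower side Pcdhb18 and Pcdhb10 had −0.20 (SE 0.17) and −0.18 (SE 0.24). Without control replicate 2 the change of Pcdhb18 was −0.039 and that of Pcdhb3 0.20, and without overexpression replicate 3 that of Pcdhb10 was −0.05. The lowest beta genes were Pcdhb2, at 0.978 to 1.44 CPM, and Pcdhb1, with 11, 12 and 8 counts in control and 20, 0 and 7 with overexpression. Beta genes are alike in sequence, and how reads that match several of them were counted is not given in the sources used here.

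The gamma cluster leaned lower, with 15 of 21 fold changes negative, beside 49.4% of all genes tested, and a median of −0.10. The spread of that median between replicates was as large, 0.10, and genes measured in the same libraries do not vary independently. Of 12 non-clustered protocadherins, 11 were negative too, with a median of −0.13. The gamma median was −0.24 without overexpression replicates 1 and 2, and −0.03 without control replicate 2, the library with the highest gamma sum. Thalamic and astrocyte markers had lower summed levels in the overexpression libraries too, although the groups overlapped in the mean log2 CPM of the astrocyte markers. The part of either list was not tested. Of the 4 members whose groups did not overlap, 3 were gamma genes, and all 4 were lower in overexpression. They made up 7.02% of the members, beside 8.93% of all genes tested with groups apart in either direction and 4.11% in the lower direction. Besides Pcdhgc3 these were Pcdhga11, with 44.8, 40.9 and 38.9 CPM in the controls against 38.1, 38.9 and 35.0 with overexpression, and Pcdhga12, with 25.3, 25.1 and 25.4 in the controls against 24.1, 24.6 and 24.7 with overexpression. For Pcdhga11 the lowest control and the highest overexpression library were nearly level, and its log2 fold change was −0.15 (SE 0.08). The groups of Pcdhga12 were apart by a small margin, at a log2 fold change of −0.04 (SE 0.07), and its variance within groups was 0.0999 times that of counting.

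**Figure D5:**
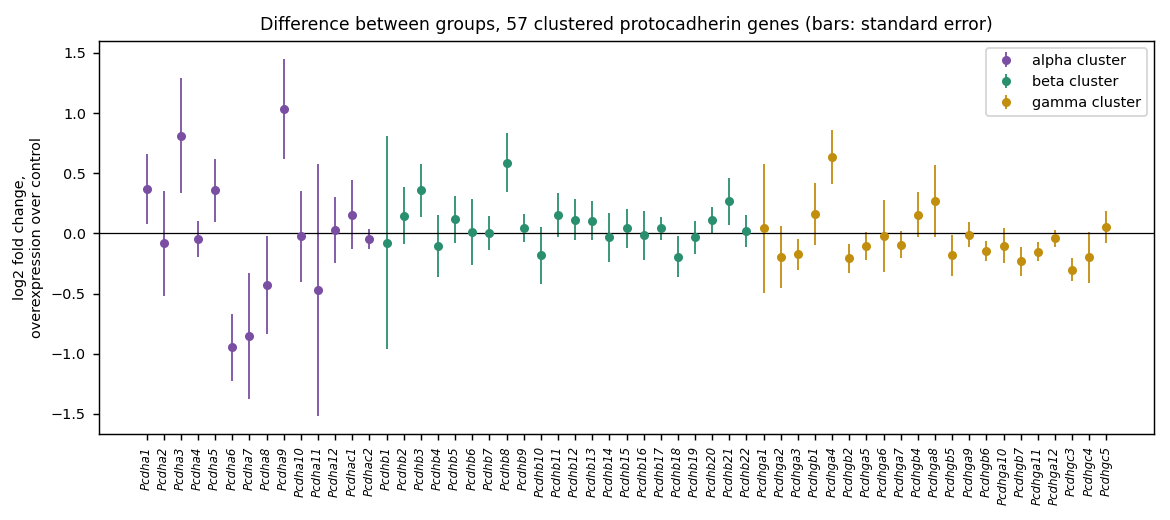
Log2 fold change of overexpression over control for each gene in chromosomal order, with bars of 1 standard error either way. Most alpha genes have long bars, most beta genes lie near 0, and 15 of the 21 gamma genes lie below 0.

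Among the A-type genes, Pcdhga4 had the smallest p. Shared bases make up 66.8% of its exons, the most of any gamma gene, and how reads in them were assigned is not given. Pcdhga4 had 7.71, 8.70 and 7.60 CPM in the controls against 11.9, 8.66 and 16.7 with overexpression. Overexpression replicates 1 and 3 were above all controls and replicate 2 was not. The log2 fold change was 0.63 (SE 0.23), with an unadjusted p of 0.0245 and an adjusted p of 1.0 in edgeR's quasi-likelihood test, and it was 0.36 without overexpression replicate 3 and 1.06 without replicates 1 and 2. Pcdhga8 had 12.8, 15.1 and 12.2 CPM in the controls against 17.6, 21.6 and 9.18 with overexpression, where replicate 3 was the lowest of all libraries and the other overexpression libraries the highest.

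Some gamma genes had single low or high libraries in both groups. Pcdhga1, the first gene of the cluster, had 4.22, 10.2 and 11.7 CPM in the controls against 10.3, 12.6 and 4.03 with overexpression. Control replicate 1 and overexpression replicate 3 were low and the other 4 libraries alike. Its neighbour Pcdhga2 was low in overexpression replicate 3 as well, at 15.6 CPM against 24.9 to 31.7 in the other libraries. Pcdhgb1, a B-type gene nearby, was low in control replicate 1, at 14.1 CPM against 23.4 to 28.7. Pcdhga6 had 38.1, 63.0 and 34.1 CPM in the controls against 57.2, 41.8 and 34.0 with overexpression, so that control replicate 2 and overexpression replicate 1 were high. The 15 medium spiny neuron markers, none at 0, had mean levels of 8.48, 8.92 and 8.10 log2 CPM in the controls against 8.88, 8.53 and 7.85 with overexpression. That puts the 6 libraries in the same order, although Pcdhga6 was nearly level in the third replicates. Cortical markers ran in nearly the reverse order, at 4.96, 3.32 and 5.58 log2 CPM in the controls against 4.34, 5.05 and 5.98 with overexpression. The part of either list in the Pcdhga6 levels was not tested. The variance of Pcdhga6 within groups was 172 times that of counting, the largest among the members. Pcdhga2 and Pcdhgb1 were chosen for description after their values were seen. Overexpression replicate 3 held the lowest value of 7 of the 12 A-type genes, of 6 of the 22 beta genes and of 17 of all 57 members.

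Of the 6 B-type genes, 0 had an unadjusted p under 0.05 in edgeR's quasi-likelihood test, beside 3.89% of all genes tested. The smallest p among them was that of Pcdhgb7, with 28.1, 25.0 and 20.7 CPM in the controls against 22.1, 20.7 and 20.0 with overexpression (log2 fold change −0.23, SE 0.12). Without control replicate 1 the change was −0.12. An antisense gene, Gm26672, overlaps 771 of its exon bases and the whole unshared part of Pcdhga10, at 0.694 to 2.32 CPM. The median of the 6 B-type genes was −0.16 and that of the 12 A-type genes −0.07.

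Regulators of promoter choice, listed apart from the members, did not pass the test either. Of 22 regulators tested, 0 passed in edgeR's quasi-likelihood test over all genes, beside 0.00505% of all genes tested. An unadjusted p under 0.05 in that test was reached by 0, beside 3.89%, and DESeq2 called 0, beside 0.419%. At such shares a list this short can be expected to hold few or none. Fold changes were negative for 17 of them, beside 49.4% of all genes tested, with a median of −0.05. Groups were apart for 1 regulator in each direction, 9.09% of the list, near the 8.93% of all genes tested. Rad21, a cohesin subunit, had 162, 148 and 146 CPM in the controls against 136, 138 and 141 with overexpression, groups that did not overlap, with a log2 fold change of −0.13 (SE 0.07). Dnmt3b, the DNA methyltransferase that marks alternate promoters, had 0.620, 0.366 and 0.520 CPM in the controls against 0.760, 0.632 and 0.774 with overexpression, at 15 to 30 counts per library. Its groups did not overlap, and its log2 fold change was 0.52 (SE 0.32).

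Of 23 genes for partners of the clustered protocadherins, 0 passed in edgeR's test over all genes or in DESeq2, beside 0.00505% and 0.419% of all genes. At an unadjusted p under 0.05 there was 1, or 4.35%, near the 3.89% of all genes tested. Groups apart in the lower direction made up 4.35% of the list, near the 4.11% of all genes. The gene in both counts was Ret, a receptor tyrosine kinase, with 5.18, 3.34 and 1.95 CPM in the controls against 0.937, 1.08 and 1.65 with overexpression. Every overexpression library was below every control, at a log2 fold change of −1.51 (SE 0.39) and an adjusted p of 0.937 in edgeR's quasi-likelihood test. Snx27, a sorting nexin, and Axin1, a scaffold of Wnt signalling, had −0.19 (SE 0.10) and −0.15 (SE 0.09). The list's median was 0.01, with 12 positive and 11 negative.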

How the data were processed

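RNA-seq of mouse striatum was analysed in 3 control and 3 overexpression samples, grouped by title. Per the labels' protocols, RNA was isolated with Trizol and libraries were strand-specific. The deposited files hold whole-number counts per Ensembl gene, 1 file per sample, without normalization. The submitters' processing notes name FastQC 0.11.5, STAR 2.5.3a, Cuffnorm, DESeq 1.16.1 and mm10 without roles. How reads were assigned to genes, with or without strand and from which annotation, is not given in the sources used here. Values of genes that overlap others, antisense ones included, are thus uncertain.

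Symbols, exons and coordinates came from GENCODE M21 on the same assembly, which matched 55154 identifiers. Groups were compared with edgeR 4.0.16 in R 4.3.3 (TMM, filterByExpr, robust quasi-likelihood test, Benjamini-Hochberg adjustment over 19809 genes, threshold 0.05, two-sided). A standard error is the absolute log2 fold change over the square root of F. Log2 CPM had a prior count of 2. Exon bases shared on the same strand were left out of lengths. Alternatives used DESeq2 1.42.0, limma 3.58.1, other factors and filters, a replicate block, covariates, thinning and left-out libraries. Replicates differed by more than sampling noise (chi-square per degree of freedom 19.1 to 49.6).

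The members and gene lists were chosen with earlier results of these data known. Genes are named by a rule on C-type, highest, lowest, smallest p and separate groups, with up to 3 of smallest p per list. One item that this rule names is not reported here. Sequences are not shown.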

Additional observations from a re-analysis of the deposited data

How the results depend on the processing

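No clustered protocadherin gene passed in any of the 18 alternative settings. The count over all genes, 1 as reported, was 83 with the DESeq2 Wald test, 6 with limma-voom, 3 without a filter on low counts, 3 with the replicate block, 6 with the cortical marker level as a covariate and 5 without overexpression replicates 1 and 2. Leaving out single libraries gave 1 to 2. The median log2 fold change of all members ran from −0.037 to 0.062, that of the alpha cluster from −0.10 to 0.14, that of the beta cluster from 0.02 to 0.09 and that of the gamma cluster from −0.14 to −0.03 in those fits, the highest value over all members being without overexpression replicate 3. The alpha median was 0.30 when choroid plexus markers entered as a covariate. Without overexpression replicates 1 and 2 the beta median was −0.076 and the gamma median −0.24, and the lone overexpression library is then assumed to vary like the controls. The cause of these shifts was not tested.

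Same-numbered samples deviated together only for replicate 3 (correlations −0.02, 0.03 and 0.29), so the numbers were not taken as pairs. Under the replicate block 0 members passed, and not every sample correlated best with its own number.

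Of the 29 members named by rule, 13 changed sign in at least 1 setting, none of them past the threshold in any, among them Pcdhga1 (0.04 as reported, −1.12 without overexpression replicates 1 and 2) and Pcdha12 (0.03 and 0.48). Other members kept their sign but moved when 1 library was left out: Pcdhb18 from −0.28 to −0.039, Pcdhb10 from −0.45 to −0.05, Pcdhb3 from 0.20 to 0.50 and Pcdhgb7 from −0.34 to −0.12. Levels per kb of Pcdha4 depended most on the length used, 15.6 over unshared exon bases, 3.23 over the coding exon and 1.34 over all exon bases. Pcdhb1 and Pcdha8 had the lowest depth, with at most 20 and 40 counts per library.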

Other observations

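Other adhesion genes gave a background to the clustered family. The 12 non-clustered protocadherins lie singly in the genome and have no shared exons with the clusters. Of these, 11 had negative fold changes, beside 49.4% of all genes tested, with a median of −0.13. In edgeR's quasi-likelihood test over all genes 0 passed, beside 0.00505% of all genes tested. An unadjusted p under 0.05 in that test was reached by 0, beside 3.89%, and DESeq2 called 0, beside 0.419%. At such shares a list this short can be expected to hold few or none. Pcdh20 had 9.55 ± 0.448 CPM in control and 8.10 ± 1.78 in overexpression, Pcdh17 had 93.0 ± 15.0 and 80.0 ± 13.6, and Pcdh10 had 200 ± 11.9 and 187 ± 8.19 (SD, n = 3). Of 18 classical cadherins tested, 11 were negative, with a median of −0.03. Beside the same shares of all genes, again 0 passed in edgeR, 0 had an unadjusted p under 0.05 and 0 were called by DESeq2. Cdh1 had 11, 0 and 0 counts in control and 6, 19 and 18 in overexpression. Cdh7 and Cdh12 had log2 fold changes of −0.20 (SE 0.13) and 0.23 (SE 0.24).

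Pcdhgb8, which GENCODE classes as a polymorphic pseudogene and which is therefore no member, lies among the gamma genes. It had 167, 160 and 68 counts in controls 1 to 3 against 421, 177 and 144 with overexpression, or 3.98, 3.90 and 1.68 CPM against 10.7, 5.32 and 3.84. Overexpression replicate 1 was its highest library and control replicate 3 its lowest.

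The remaining marker lists had median log2 fold changes of 0.40 for cortical, 3.22 for choroid plexus, −0.03 for medium spiny neuron, 0.06 for pan-neuronal, −0.36 for thalamic, −0.19 for astrocyte, −0.08 for oligodendrocyte, 0.11 for microglia and −0.05 for serotonergic markers, with 0 genes of any list past the threshold in edgeR's test. At an unadjusted p under 0.05, beside 3.89% of all genes tested, were 1 of 16 cortical, 6 of 14 choroid plexus, 3 of 12 thalamic, 4 of 12 astrocyte and 4 of 12 microglia genes. The other lists had 0, of 15 medium spiny neuron, 12 pan-neuronal, 12 oligodendrocyte and 6 serotonergic genes tested. DESeq2 called 1 thalamic and 1 astrocyte gene, beside 0.419% of all genes.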
